A study of Mus musculus with 20 samples.

Results

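The genes described here are 34 genes of glycolysis and of the response to low oxygen: enzymes that turn glucose into lactate, carriers of glucose and lactate, switches of glycolytic flux, and the regulators and targets of the hypoxia-inducible factor HIF. They were chosen by gene symbol. Of the 34, 30 had a named probe set among the 20239 named genes of the array. Gpi1, Gapdh, Pgam1 and Eno1 had none and were not analysed here.

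Each of 20 embryonic day 15 mouse forebrains was hybridised to its own Affymetrix Mouse Gene ST 1.0 array. Wild-type (WT) and Ts1Cje embryos came from parents fed either purified powdered chow alone (plain chow) or the same chow with apigenin, which gives 4 groups of 5, each with 3 males and 2 females. Ts1Cje mice carry a segmental trisomy: the far end of chromosome 16 is present in an additional copy, which models a part of Down syndrome. All embryos came from Ts1Cje fathers and C57Bl/6J mothers, so WT embryos had trisomic fathers too. Apigenin, a plant flavone, was mixed into the parents' food (2 g per kg of chow) from mating onward, so the embryos received it through the mother. The labels name no litters, so embryos may be littermates and p-values measure only the spread among these embryos. Plain-chow embryos carried numbers of 87 and above and apigenin embryos numbers of 1 to 59, so chow and embryo number cannot be told apart.

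Arrays were alike. Their medians lay between 7.84 and 7.88 on the log2 scale, and pairs of arrays correlated at 0.991 to 0.997 across genes. The mean of 5 genes of the trisomic segment was 10.7 to 10.8 in all WT embryos and 11.1 to 11.2 in all Ts1Cje embryos, which matched the genotype labels. Forebrain markers were present, all 7 above the middle of the array at 55.3% or higher in rank, whereas only 1 of 12 markers of hindbrain, liver and muscle lay above it. The number of arrays limits the precision. In RNA of whole tissue, fewer cells of a type and less RNA per cell cannot be told apart.

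Glycolysis splits glucose into pyruvate, which lactate dehydrogenase reduces to lactate when pyruvate does not enter the mitochondria. HIF is a transcription factor whose alpha subunit, made from Hif1a, is hydroxylated by oxygen-using prolyl hydroxylases of the Egln family and then degraded. When oxygen is low the subunit persists and raises glycolytic enzymes, glucose carriers, angiogenic factors and several stress genes. In the embryonic forebrain, stem cells along the ventricle are known to rely on glycolysis more than the neurons they produce.

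HIF binds DNA at a core of the letters ACGTG or GCGTG, so both were searched on both strands in RefSeq promoter windows of the GRCm38.p6 assembly, from 250 bases before a transcript start to 50 after it. Of the 30 members 27 had a window and Slc2a3, Bnip3l and Ndrg1 did not. ACGTG stood in at least 1 window of 20 of the 27 members (74.1%) and of 21.8% of all 27025 genes with a window, and in 60.0% of the members' 40 windows and 19.6% of all 32851. GCGTG stood in 16 of the 27 members (59.3%) and in 35.2% of all genes. The E-box CACGTG, which contains ACGTG and is read by Myc and its relatives, stood in 22.2% of the members and 8.1% of all genes. None of the 27 members' windows lay on chromosome 16: 0 members with a window are on the chromosome whose distal part is trisomic.

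The 250 bases before the start are shown for 4 members on which the results turn: Ddit4, the member that differed by genotype; Mxi1, a HIF target that was higher on apigenin in both genotypes; Vegfa, a HIF target that was lower on apigenin in Ts1Cje embryos; and Egln3, the HIF regulator that fell, chosen after its values were seen. They read 5′ to 3′ on the gene's strand, and capitals mark ACGTG or GCGTG on either strand. The Ddit4 window is chr10:59951771-59952020 on the minus strand, with matches starting at -187 and -115, counted so that -1 is the base before the start. The Egln3 window is chr12:54203875-54204124 on the minus strand, with 1 match at -229. The Mxi1 window, 1 of 3 for this gene, is chr19:53329163-53329412 on the plus strand, with 1 match at -66. Of the Mxi1 windows not shown, the one farthest upstream holds no match and the other holds 1, at -25. The Vegfa window, chr17:46032378-46032627 on the minus strand, holds no match, and the match counted for Vegfa lies in its other window, at a start farther downstream in the gene.
Ddit4: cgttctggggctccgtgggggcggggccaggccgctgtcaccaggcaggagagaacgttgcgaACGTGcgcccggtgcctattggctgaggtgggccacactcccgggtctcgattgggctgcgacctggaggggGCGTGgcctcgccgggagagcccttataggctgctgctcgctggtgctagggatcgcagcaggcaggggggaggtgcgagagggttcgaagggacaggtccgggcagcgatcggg
Egln3: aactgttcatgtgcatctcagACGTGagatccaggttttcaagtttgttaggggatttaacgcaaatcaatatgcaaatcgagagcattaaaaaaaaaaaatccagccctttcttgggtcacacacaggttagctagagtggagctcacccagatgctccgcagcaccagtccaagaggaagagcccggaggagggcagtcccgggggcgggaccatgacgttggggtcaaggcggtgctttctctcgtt
Mxi1: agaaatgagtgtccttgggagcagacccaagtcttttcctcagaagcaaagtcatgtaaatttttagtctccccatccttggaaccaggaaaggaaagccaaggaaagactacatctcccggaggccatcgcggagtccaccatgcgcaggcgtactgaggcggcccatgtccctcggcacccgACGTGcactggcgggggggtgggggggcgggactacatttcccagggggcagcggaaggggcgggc
Vegfa: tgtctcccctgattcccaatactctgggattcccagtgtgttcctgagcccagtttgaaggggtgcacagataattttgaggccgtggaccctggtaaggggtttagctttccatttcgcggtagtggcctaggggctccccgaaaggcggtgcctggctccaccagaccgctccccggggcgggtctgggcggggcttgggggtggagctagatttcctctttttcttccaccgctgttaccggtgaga

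The first question was whether the trisomy changed these genes. On plain chow 1 of the 30 members, Ddit4, was lower in Ts1Cje embryos and 0 were higher, at an adjusted p under 0.05 (limma, Benjamini-Hochberg over 20239 genes). Over all named genes 0.0494% were lower and 0.262% higher. On apigenin chow 0 members passed in either direction, where again 0.262% of all genes were higher and 0.0494% lower. At an unadjusted p under 0.05, 7 members (23.3%) differed on plain chow and 3 (10%) on apigenin chow, where the shares of all genes were 6.69% and 5.23%. Averaged over both chows, Ddit4 was again the 1 member called, against 0.489% of all genes higher and 0.133% lower.

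Ddit4, also called Redd1, is induced by low oxygen, energy stress and glucocorticoids and restrains the growth-promoting kinase complex mTORC1. On plain chow Ddit4 lay at 9.19, 8.88, 8.95, 9.18 and 8.99 on the log2 scale in the WT embryos and at 8.81, 8.71, 8.72, 8.80 and 8.66 in the Ts1Cje embryos. Every Ts1Cje embryo lay below every WT embryo. Apigenin-fed WT embryos had 9.23, 9.13, 9.11, 9.19 and 9.31, and apigenin-fed Ts1Cje embryos had 8.95, 8.98, 8.95, 9.04 and 9.15. On this chow 4 of 5 Ts1Cje embryos lay below all WT embryos and 1 lay within the WT range.

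The log2 difference of Ddit4 between Ts1Cje and WT was -0.30 ± 0.06 (SE, n = 5 per group) on plain chow, a 1.23-fold lower level (limma, adjusted p = 0.0306). On apigenin chow it was -0.18 ± 0.06 (limma, adjusted p = 0.597), and averaged over both chows -0.24 ± 0.04 (limma, adjusted p = 0.00518). The genotype difference was smaller by 0.11 on apigenin chow, with a 95% interval of -0.07 to 0.29 (limma, interaction adjusted p = 1). Within the runs of neighbouring embryo numbers, which each hold 2 or 3 embryos per genotype, Ddit4 differed by -0.35 and -0.26 in the plain-chow runs and by -0.27 and -0.06 in the apigenin runs. Ddit4 was thus lower in Ts1Cje in each of the 4 runs, by very little in the run of embryos 55 to 59.

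The call on plain chow rested on few embryos. It was lost without WT replicate 1 (adjusted p = 0.114), 4 (0.12) or 5 (0.0544) and without Ts1Cje replicate 2 (0.0988), 3 (0.0972) or 5 (0.0994), each by limma, and also with the embryo number runs in the model (0.0599) or with only the groups compared (0.265). Averaged over both chows the call held without each of these embryos and with the embryo number runs in the model. A fit of only the groups compared was not run for the average.

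Between the chows Ddit4 differed in the other direction, with the higher means on apigenin, although chow and embryo number cannot be told apart. Within WT embryos the difference of apigenin minus plain chow was 0.16 ± 0.06 (limma, adjusted p = 0.103), and within Ts1Cje embryos it was 0.27 ± 0.06, with all 5 apigenin embryos above all 5 on plain chow (limma, adjusted p = 0.00386). The comparison within Ts1Cje uses the same plain-chow embryos as the genotype comparison, so these 2 values are not independent. Apigenin-fed Ts1Cje embryos and plain-fed WT embryos differed by -0.03 ± 0.06 in Ddit4, with a 95% interval of -0.15 to 0.10, a contrast chosen after the values were seen.

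**Figure D1:**
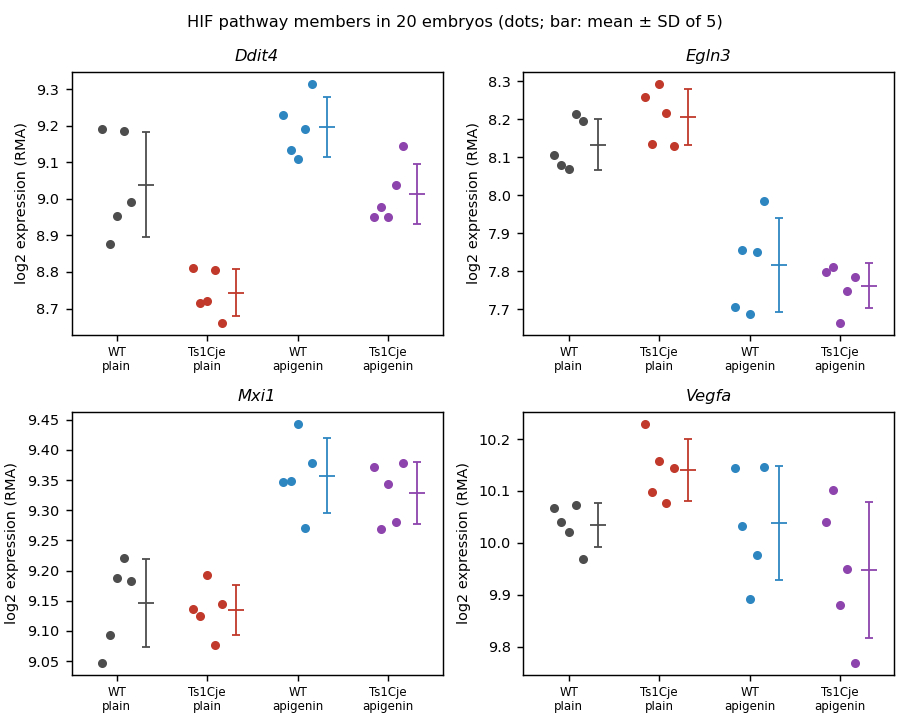
Log2 expression of Ddit4, Egln3, Mxi1 and Vegfa in each of the 20 embryos (dots), with the mean ± SD of the 5 embryos per group (bar). Ddit4 is lowest in Ts1Cje on plain chow, at 8.66 to 8.81, and Egln3 and Mxi1 separate by chow with no overlap.

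By rule the members with the next smallest p by genotype are named as well. On plain chow these were Bnip3l and Bnip3, which mark mitochondria for removal, at 0.18 ± 0.07 (limma, adjusted p = 0.629) and 0.22 ± 0.09 (limma, adjusted p = 0.671). For both genes the 2 genotypes overlapped. On apigenin chow Pfkfb3, which makes the activator of phosphofructokinase, differed by -0.10 ± 0.04 (limma, adjusted p = 0.786) and Ldhb by -0.12 ± 0.06 (limma, adjusted p = 0.951). Vegfa was higher in all 5 Ts1Cje embryos than in any WT embryo on plain chow, but only narrowly. The highest WT value was 10.073 and the lowest Ts1Cje value 10.077. The Vegfa difference of 0.11 ± 0.06 did not pass (limma, adjusted p = 0.824). Pfkl, whose human counterpart lies on the chromosome trisomic in Down syndrome but which sits on chromosome 10 in the mouse, differed by 0.06 ± 0.04 on plain chow, with a 95% interval of -0.03 to 0.14.

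The second question was how the members differed between the chows. In WT embryos 2 members were higher on apigenin, Mxi1 and Slc16a1, and 5 were lower, Egln3, Hk1, Eno2, Ndrg1 and Slc2a3. These are 6.7% and 16.7% of the 30, and 6.46% and 5.85% of all named genes were called in those directions. In Ts1Cje embryos 5 were higher, Slc16a1, Mxi1, Ddit4, Hk2 and Pkm, and 7 were lower, Egln3, Slc2a3, Pdk1, Vegfa, Ndrg1, Hk1 and Ldhb. These are 16.7% and 23.3% of the members, and 8.09% and 8.17% of all genes were called. Averaged over both genotypes, 5 members were higher (16.7%, against 13.8% of all genes) and 9 lower (30%, against 12.0%). The share of members called higher was close to the share of all genes in WT and in the average and above it in Ts1Cje, and the share called lower was above it in all 3 comparisons.

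As a whole the members shifted little. Their median apigenin difference was -0.05 in WT and -0.07 in Ts1Cje, where the medians over all named genes were -0.01 and 0.01. Between the genotypes, 23 of 30 members had the same sign, as had 14771 of all 20239 genes (73%). The 2 comparisons share no embryos. Called in both were 6 members, all in the same direction: Mxi1 and Slc16a1 higher, Egln3, Hk1, Ndrg1 and Slc2a3 lower. They make up 85.7% of the calls in WT and 50% of those in Ts1Cje. The share of all genes called in both genotypes was not computed, so this overlap cannot be called particular to the members.

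**Figure D2:**
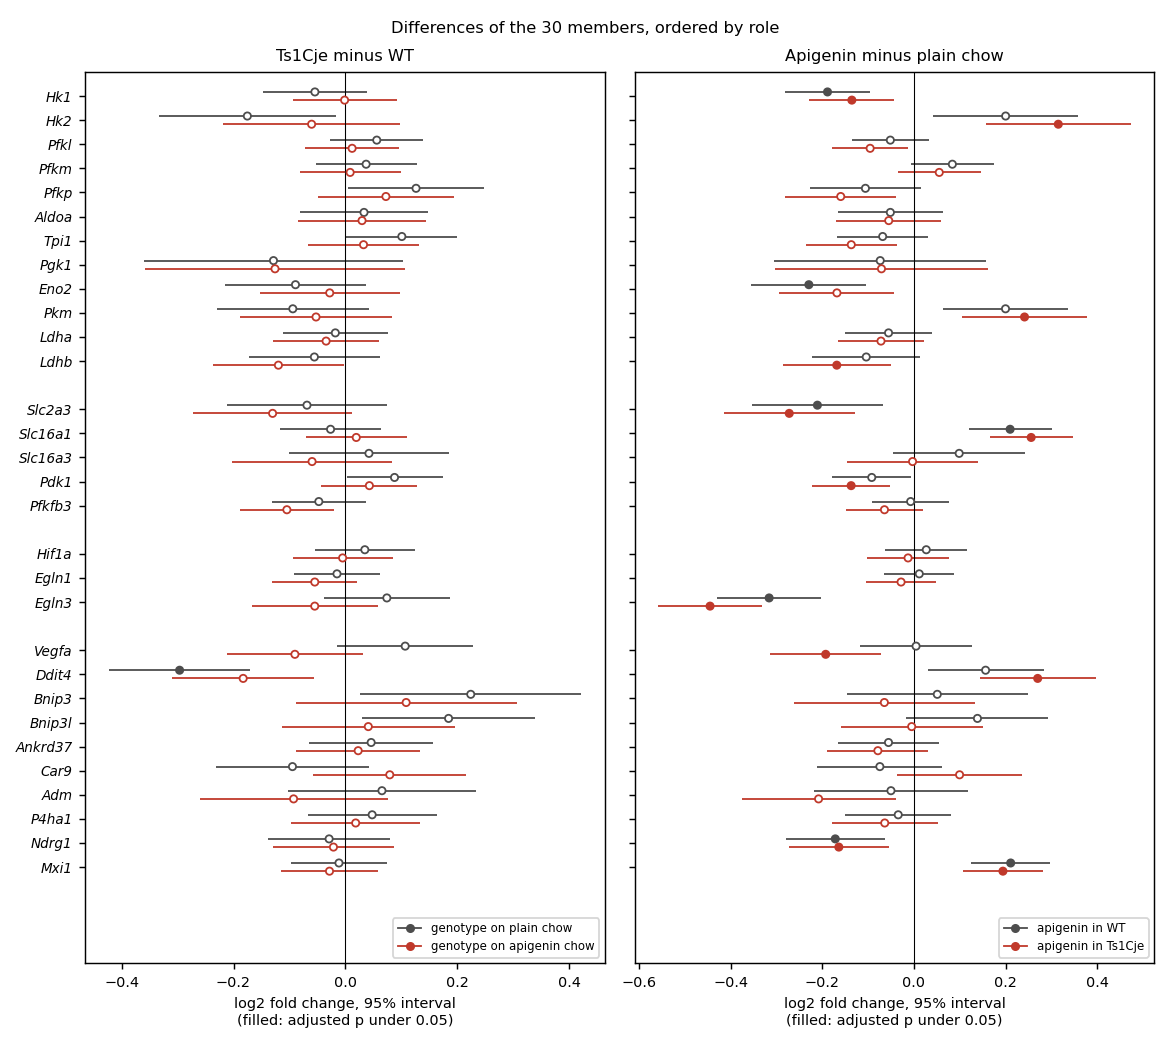
Log2 fold changes of the 30 members with 95% intervals (5 embryos per group), ordered by role, for genotype on each chow (left) and apigenin in each genotype (right); filled points have an adjusted p under 0.05. One point is filled on the left, Ddit4 on plain chow, and 7 and 12 are filled on the right.

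Among the HIF regulators only Egln3 changed. Egln3 is a prolyl hydroxylase that acts on HIF and is itself a HIF target. On plain chow Egln3 lay at 8.11, 8.08, 8.07, 8.21 and 8.20 in WT and at 8.26, 8.14, 8.29, 8.22 and 8.13 in Ts1Cje embryos. With apigenin it lay at 7.71, 7.86, 7.69, 7.85 and 7.99 in WT and at 7.80, 7.81, 7.67, 7.75 and 7.79 in Ts1Cje embryos. All 10 embryos on apigenin were below all 10 on plain chow. The difference was -0.32 ± 0.05 in WT, 1.24-fold lower (limma, adjusted p = 0.00077), and -0.44 ± 0.05 in Ts1Cje, 1.36-fold lower (limma, adjusted p = 1.89e-05).

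Hif1a and Egln1, the main hydroxylase of HIF, did not pass. Averaged over genotypes Hif1a differed by 0.01, with a 95% interval of -0.06 to 0.07, and Egln1 by -0.01, with an interval of -0.06 to 0.05. The HIF subunit is regulated mainly as a protein, which was not measured.

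Of the 10 members listed as HIF targets, 2 were higher on apigenin (20%) and 1 was lower (10%) over both genotypes. These shares rest on few genes and lie near the 13.8% and 12.0% of all genes called in those directions. They also depend on the list, because HIF targets such as Egln3, Pdk1 and Ldha are counted under other roles. Of those, Egln3 and Pdk1 were called lower over both genotypes and Ldha was not called. Mxi1, a partner of Max that opposes Myc, lay at 9.05, 9.09, 9.19, 9.22 and 9.18 in WT and at 9.14, 9.12, 9.19, 9.08 and 9.15 in Ts1Cje embryos on plain chow. Its apigenin values were 9.35, 9.35, 9.44, 9.27 and 9.38 in WT and 9.37, 9.27, 9.34, 9.28 and 9.38 in Ts1Cje embryos. All apigenin embryos lay above all plain-chow embryos. The difference was 0.21 ± 0.04 in WT (limma, adjusted p = 0.00212) and 0.19 ± 0.04 in Ts1Cje (limma, adjusted p = 0.00257).

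Ndrg1, a stress-responsive gene induced by low oxygen, fell in both genotypes. Plain-chow values of Ndrg1 were 9.70, 9.55, 9.61, 9.68 and 9.75 in WT and 9.72, 9.65, 9.58, 9.60 and 9.58 in Ts1Cje embryos. With apigenin they were 9.47, 9.42, 9.47, 9.52 and 9.54 in WT and 9.39, 9.47, 9.31, 9.59 and 9.56 in Ts1Cje embryos. The WT groups did not overlap, and 4 of 5 Ts1Cje embryos on apigenin lay below all on plain chow. The difference was -0.17 ± 0.05 in WT (limma, adjusted p = 0.0341) and -0.16 ± 0.05 in Ts1Cje (limma, adjusted p = 0.0352).

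Vegfa, the growth factor of blood vessels, was called in Ts1Cje embryos and not in WT. Without apigenin Vegfa lay at 10.07, 10.04, 10.02, 10.07 and 9.97 in WT and at 10.23, 10.10, 10.16, 10.08 and 10.14 in Ts1Cje embryos. On apigenin it lay at 10.15, 10.03, 9.89, 9.98 and 10.15 in WT and at 10.04, 10.10, 9.88, 9.95 and 9.77 in Ts1Cje embryos. The highest group was Ts1Cje on plain chow, and the lowest values were in Ts1Cje on apigenin, whose range overlapped WT. The apigenin difference was 0.00 ± 0.06 in WT (limma, adjusted p = 0.976) and -0.19 ± 0.06 in Ts1Cje (limma, adjusted p = 0.0271). Those differences differed by -0.20 ± 0.08 (limma, interaction adjusted p = 1). No member and 0% of all genes passed the interaction test, and at an unadjusted p under 0.05 Vegfa was the only member. That is 3.3% of the 30, near the 2.63% of all genes at that threshold.

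The other members listed as HIF targets did not pass on apigenin in either genotype. Bnip3, Bnip3l, Ankrd37, P4ha1, which hydroxylates collagen, Adm, a vasodilator peptide, and Car9, a carbonic anhydrase, had averaged differences between -0.13 for Adm and 0.07 for Bnip3l. Adm was nearest to a call, at -0.21 ± 0.08 in Ts1Cje (limma, adjusted p = 0.0879). Car9, at 5.54 to 6.00 in all embryos, was the only member among the dimmest 20% of genes, and changes of such dim genes are compressed.

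Of the 12 measured enzymes, 2 were higher (16.7%) and 5 lower (41.7%) over both genotypes on apigenin, against the same 13.8% and 12.0% of all genes. The hexokinases, which start glycolysis by phosphorylating glucose, moved in opposite directions. Hk1, the form of most tissues, lay on plain chow at 10.56, 10.34, 10.43, 10.52 and 10.38 in WT and at 10.42, 10.30, 10.38, 10.42 and 10.42 in Ts1Cje embryos. Its apigenin values were 10.20, 10.19, 10.24, 10.31 and 10.35 in WT and 10.24, 10.28, 10.22, 10.27 and 10.26 in Ts1Cje embryos. The difference was -0.19 ± 0.04 in WT (limma, adjusted p = 0.00767) and -0.14 ± 0.04 in Ts1Cje (limma, adjusted p = 0.042), where the 2 groups did not overlap.

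Hk2, the inducible form, was higher. Plain-chow levels of Hk2 were 7.87, 7.37, 7.58, 7.68 and 7.70 in WT and 7.47, 7.51, 7.48, 7.42 and 7.45 in Ts1Cje embryos. They became 7.84, 7.95, 7.87, 7.60 and 7.95 in apigenin-fed WT and 7.85, 7.77, 7.76, 7.86 and 7.66 in apigenin-fed Ts1Cje embryos. All 5 Ts1Cje embryos on apigenin lay above all on plain chow, with a difference of 0.31 ± 0.08, or 1.24-fold (limma, adjusted p = 0.00639). In WT the groups overlapped, with a difference of 0.20 ± 0.08 (limma, adjusted p = 0.0948).

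Pkm, the pyruvate kinase that closes glycolysis, was also higher. Pkm lay on plain chow at 10.27, 10.19, 10.14, 10.16 and 10.10 in WT and at 9.95, 9.88, 10.31, 10.10 and 10.17 in Ts1Cje embryos. On apigenin the levels were 10.35, 10.24, 10.43, 10.39 and 10.47 in WT and 10.26, 10.29, 10.40, 10.38 and 10.28 in Ts1Cje embryos. The groups of each genotype overlapped at their edges, with 4 of 5 WT embryos and 2 of 5 Ts1Cje embryos on apigenin above all on plain chow. The difference was 0.24 ± 0.07 in Ts1Cje (limma, adjusted p = 0.0139) and 0.20 ± 0.07 in WT, just short of the threshold (limma, adjusted p = 0.0503). Probe sets that read all Pkm transcripts do not tell its M1 and M2 forms apart.

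Eno2, the enolase of neurons, was lower. Eno2 lay on plain chow at 8.96, 8.96, 8.86, 9.02 and 8.96 in WT and at 8.99, 8.75, 8.80, 8.83 and 8.94 in Ts1Cje embryos. Apigenin-fed embryos had 8.76, 8.51, 8.66, 8.86 and 8.83 in WT and 8.64, 8.63, 8.70, 8.71 and 8.79 in Ts1Cje. The WT groups did not overlap, with a difference of -0.23 ± 0.06 (limma, adjusted p = 0.0149). In Ts1Cje the difference was -0.17 ± 0.06 (limma, adjusted p = 0.0623).

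Ldhb, the lactate dehydrogenase subunit that favours pyruvate, was lower in Ts1Cje. Its plain-chow values were 9.37, 9.42, 9.28, 9.57 and 9.42 in WT and 9.41, 9.34, 9.47, 9.29 and 9.27 in Ts1Cje embryos. Its apigenin values were 9.27, 9.29, 9.19, 9.46 and 9.35 in WT and 9.18, 9.12, 9.16, 9.22 and 9.27 in Ts1Cje embryos. All 5 Ts1Cje embryos on apigenin lay below all on plain chow, with a difference of -0.17 ± 0.06 (limma, adjusted p = 0.0453), and in WT it was -0.10 ± 0.06 (limma, adjusted p = 0.268). Ldha, the subunit that favours lactate and a HIF target, did not pass, with an averaged difference of -0.06 and a 95% interval of -0.13 to 0.00.

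Pfkp, the platelet phosphofructokinase, and Tpi1, triose phosphate isomerase, passed only when both genotypes were averaged. Plain-chow levels of Pfkp were 10.09, 9.92, 10.11, 10.04 and 9.94 in WT and 10.23, 10.18, 10.13, 10.06 and 10.13 in Ts1Cje embryos, and apigenin levels were 9.88, 9.91, 9.94, 9.87 and 9.96 and 9.85, 10.22, 9.91, 9.95 and 10.01. The single value of 10.22 stood apart from the other Ts1Cje embryos on apigenin, which all lay below the Ts1Cje embryos on plain chow. The averaged difference of Pfkp was -0.13 ± 0.04 (limma, adjusted p = 0.0204). Tpi1 lay at 11.11, 11.10, 10.99, 11.10 and 11.18 in WT and at 11.25, 11.18, 11.11, 11.24 and 11.21 in Ts1Cje embryos on plain chow, and at 10.94, 11.02, 10.99, 11.07 and 11.11 and 11.11, 10.91, 11.12, 11.12 and 11.03 on apigenin. All of its groups overlapped by chow, and the averaged difference was -0.10 ± 0.03 (limma, adjusted p = 0.0281). The Tpi1 call was lost without WT plain replicate 5, Ts1Cje plain replicate 1 or 4, WT apigenin replicate 1 or Ts1Cje apigenin replicate 2, with adjusted p up to 0.056 by limma.

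The remaining enzymes, Pfkl, Pfkm, Aldoa, Pgk1 and Ldha, did not pass in any comparison. Pgk1, phosphoglycerate kinase, varied most, from 7.30 to 8.24 across embryos, and its interval for the averaged apigenin difference was -0.24 to 0.09. Several glycolytic genes are known to have many near-identical processed pseudogenes, and whether these probe sets also read such copies was not tested.

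**Figure D3:**
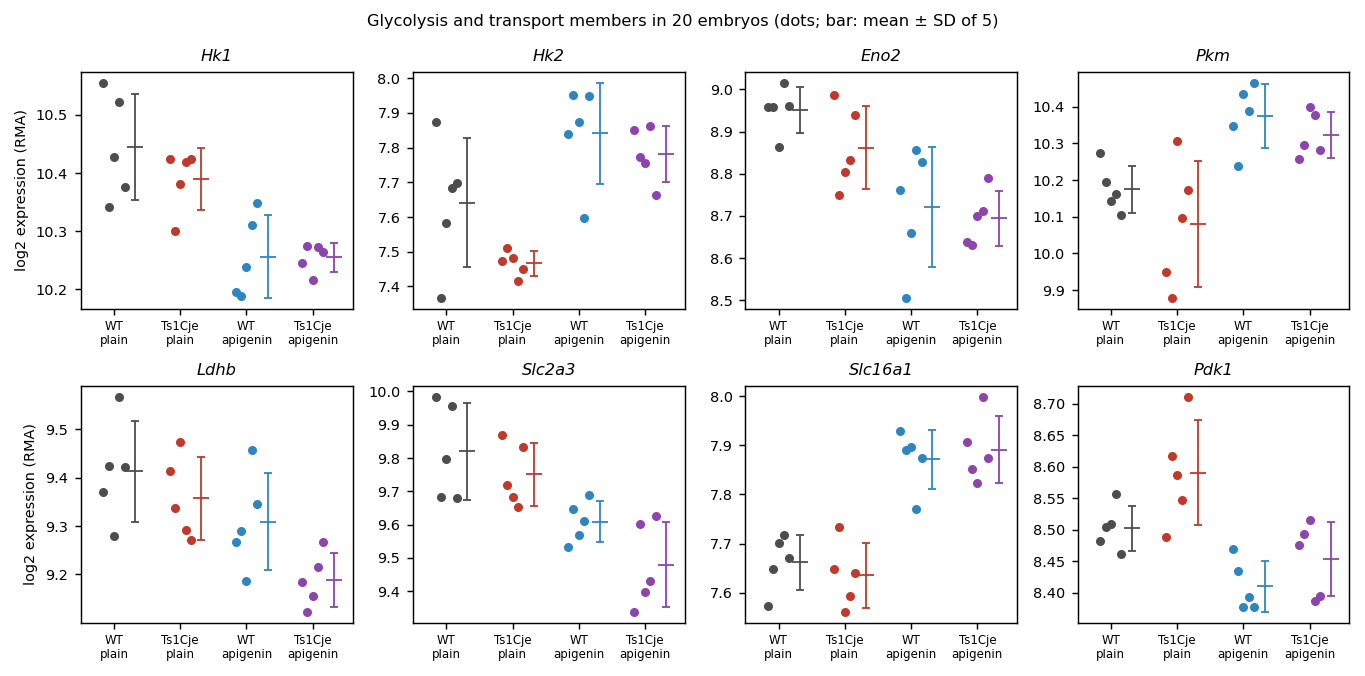
Log2 expression of 8 enzymes, carriers and switches in each of the 20 embryos (dots), with the mean ± SD of the 5 embryos per group (bar); each panel has its own scale. Slc16a1 separates by chow with no overlap, Hk2 and Pkm are higher on apigenin, and Hk1, Eno2, Ldhb and Slc2a3 are lower.

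The 2 named carriers that changed went in opposite directions. Slc16a1, also called MCT1, carries lactate and other monocarboxylates and is present in endothelium and glia. On plain chow Slc16a1 lay at 7.57, 7.65, 7.70, 7.72 and 7.67 in WT and at 7.65, 7.73, 7.56, 7.59 and 7.64 in Ts1Cje embryos. Fed apigenin, WT embryos had 7.93, 7.89, 7.90, 7.77 and 7.87 and Ts1Cje embryos 7.91, 7.85, 7.82, 8.0 and 7.87. All 10 apigenin embryos lay above all 10 on plain chow, with a difference of 0.21 ± 0.04 in WT (limma, adjusted p = 0.00307) and 0.26 ± 0.04 in Ts1Cje (limma, adjusted p = 0.000414).

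Slc2a3, also called GLUT3, is the glucose carrier of neurons and was lower on apigenin. Slc2a3 lay on plain chow at 9.98, 9.68, 9.80, 9.96 and 9.68 in WT and at 9.87, 9.72, 9.68, 9.65 and 9.83 in Ts1Cje embryos. With apigenin its values were 9.53, 9.65, 9.57, 9.61 and 9.69 in WT and 9.34, 9.60, 9.40, 9.43 and 9.63 in Ts1Cje embryos. In Ts1Cje the groups did not overlap and the difference was -0.27 ± 0.07 (limma, adjusted p = 0.00864). In WT 4 of 5 apigenin embryos lay below all on plain chow and the difference was -0.21 ± 0.07 (limma, adjusted p = 0.0486).

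Pdk1, the kinase that keeps pyruvate out of the mitochondria and a HIF target, was lower in Ts1Cje. Pdk1 lay on plain chow at 8.48, 8.50, 8.51, 8.56 and 8.46 in WT and at 8.49, 8.62, 8.59, 8.55 and 8.71 in Ts1Cje embryos. On apigenin it lay at 8.47, 8.43, 8.38, 8.39 and 8.38 in WT and at 8.48, 8.49, 8.52, 8.39 and 8.39 in Ts1Cje embryos. In Ts1Cje 3 of 5 apigenin embryos lay below all on plain chow, with a difference of -0.14 ± 0.04 (limma, adjusted p = 0.026), and in WT it was -0.09 ± 0.04 (limma, adjusted p = 0.167). Slc16a3, the lactate exporter MCT4, and Pfkfb3 did not pass in any comparison, with averaged apigenin differences of 0.05 and -0.04.

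Several of the apigenin calls lay close to the threshold. The call for Slc2a3 in WT was lost in 19 of 31 alternative settings, with adjusted p up to 0.133 (limma and the methods' t-test). In Ts1Cje, Ldhb was lost in 13 of 31, Hk1 in 11, Ndrg1 in 10, Pdk1 in 8 and Vegfa in 7, and in WT Ndrg1 was lost in 8. Among these, leaving out 1 embryo was enough for each of the 7 calls. The Slc2a3 call in WT was lost without WT plain replicate 1, 3 or 4, Ts1Cje plain replicate 2, 3, 4 or 5, any WT apigenin embryo, or Ts1Cje apigenin replicate 3 or 4. Ndrg1 was lost in WT without WT plain replicate 1, 4 or 5 or WT apigenin replicate 1, 2 or 3, and in Ts1Cje without plain replicate 1, 2 or 4 or apigenin replicate 1, 2 or 3, with adjusted p up to 0.115 over all settings. Hk1 in Ts1Cje was lost without any 1 Ts1Cje embryo except plain replicate 2, with adjusted p up to 0.0976. Ldhb was lost without WT plain replicate 5, Ts1Cje plain replicate 1, 2 or 3, WT apigenin replicate 1, 2 or 5, or Ts1Cje apigenin replicate 1, 2, 3 or 4, with adjusted p up to 0.117. Vegfa was lost without Ts1Cje plain replicate 1 or Ts1Cje apigenin replicate 3 or 5 (up to 0.0861), and Pdk1 without Ts1Cje plain replicate 2 or 5 or Ts1Cje apigenin replicate 4 or 5 (up to 0.0857), all by limma or the methods' t-test. Egln3, Mxi1 and Slc16a1 in both genotypes, and Ddit4 and Hk2 in Ts1Cje, kept their calls whichever embryo was left out.

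Across embryos of a group the members did not all vary together. Their median SD within groups was 0.0866 on the log2 scale, against 0.0992 over all genes, and ranged from 0.0470 to 0.191. After the group means were removed, 253 of the 435 pairs of members correlated positively over the 20 embryos, with a median r of 0.07 and a range of -0.72 to 0.73. The highest was between Pfkm and Aldoa, and the lowest between Ldha and Hif1a. These values describe pairs measured on the same arrays and carry no test.

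**Figure D4:**
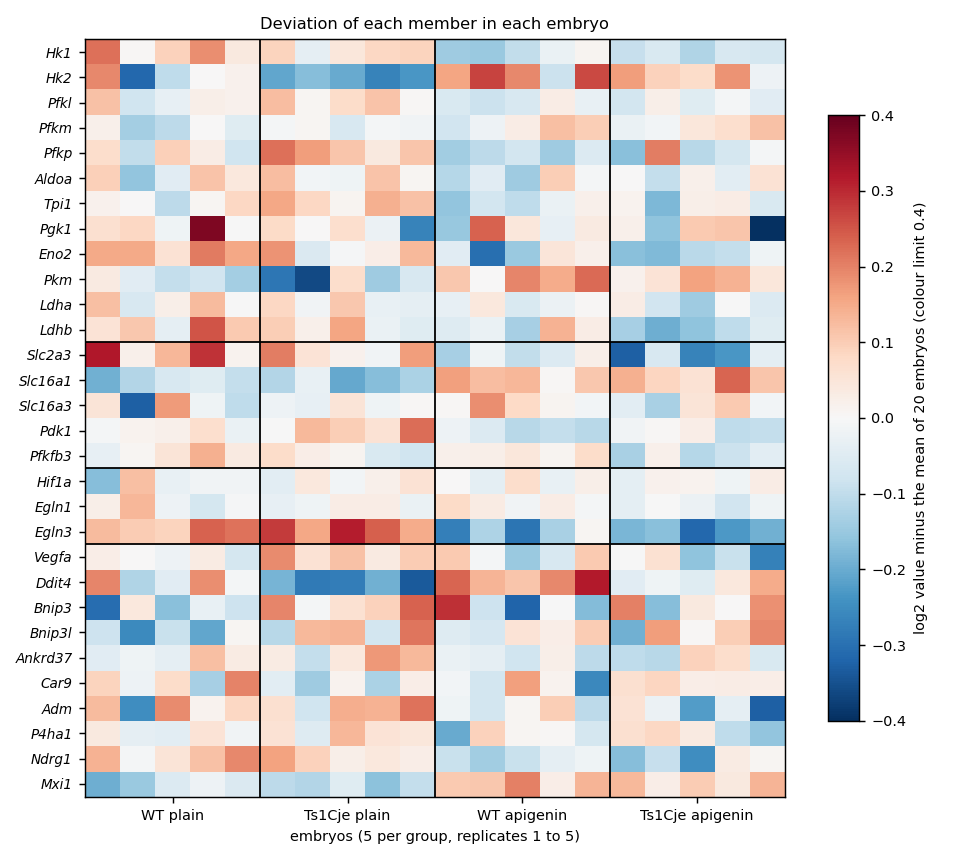
Log2 value of each member (rows, by role) in each embryo (columns, 5 per group) minus that member's mean over the 20 embryos; the colour limit is 0.4. Egln3 and Slc2a3 turn from red to blue between plain chow and apigenin, Slc16a1, Mxi1 and Hk2 from blue to red, and most other rows show no block of colour by group.

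The promoter letters were set beside the apigenin calls as a description. Of the members called higher in any apigenin comparison, all 5 had a window and all 5 held ACGTG: Ddit4, Hk2, Mxi1, Pkm and Slc16a1. Of the 10 called lower, 8 had a window and 3 held ACGTG, Egln3, Hk1 and Vegfa. Of the lower members without ACGTG, Ldhb, Pdk1 and Pfkp held the other core, GCGTG, and Eno2 and Tpi1 held neither. Of the 14 with a window that never passed, 12 held ACGTG, and the others, Adm and Pfkl, held GCGTG. Among all 27 members with a window, 20 (74.1%) held ACGTG and 16 (59.3%) held GCGTG. A member with several windows counted if any of them held the letters. The groups are small, and a link between the letters and the direction was not tested. A match shows only that the letters are present in the window.

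Other genes of the same pathways were read from lists. By genotype averaged over both chows, 1 gene of the 8 related lists passed, Pdp1, a phosphatase that activates pyruvate dehydrogenase, which was higher in Ts1Cje by 0.12 ± 0.02 (limma, adjusted p = 0.0148). No gene of the mTORC1 list (0 of 25), the glucocorticoid list (0 of 18) or the ATF4 list (0 of 20), the pathways around Ddit4, passed by genotype. Klf9, a glucocorticoid-induced factor, was at -0.14 ± 0.04 on plain chow (limma, adjusted p = 0.358).

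On apigenin, averaged over both genotypes, 3 of 19 other glycolysis and lactate genes were higher and 1 lower, with a list median of 0.01. The counts of this and the following lists are to be read against the 13.8% of all genes called higher and 12.0% called lower in that comparison. The higher ones were Aldoc, an aldolase, at 0.15 ± 0.03, Adpgk at 0.13 ± 0.03 and Bpgm at 0.17 ± 0.04. Of 17 other transport and pyruvate entry genes, 1 was higher and 3 lower, with Slc16a7, the lactate carrier MCT2, at -0.40 ± 0.05 and Bsg, the chaperone of the lactate carriers, at -0.16 ± 0.03. Slc16a7 thus fell where Slc16a1 rose. Of 7 pentose phosphate genes 3 were higher and 3 lower.

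Other components of the HIF pathway were mostly not called: 3 of 17 were higher, among them Hif1an, which inhibits HIF by hydroxylation, at 0.21 ± 0.04, and 2 were lower, among them Epas1, which makes HIF-2 alpha, at -0.13 ± 0.03. Of 39 other HIF targets 7 were higher (17.9%) and 5 lower (12.8%), near the shares of all genes, with a median of 0.02. Ccng2 at 0.24 ± 0.03 and Kdm3a, a histone demethylase, at 0.23 ± 0.03 led the higher ones, and Ppfia4 at -0.26 ± 0.04 and Flt1, a VEGF receptor, at -0.18 ± 0.04 the lower ones.

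Around Ddit4, 1 of 25 mTORC1 genes was higher and 2 were lower on apigenin, and 2 of 18 glucocorticoid-responsive genes were higher and 3 lower, among them Klf9 at -0.19 ± 0.03. ATF4, a factor of the amino acid stress response, can induce Ddit4, but its part in the Ddit4 difference was not tested. Of the 20 genes of the ATF4 list, which includes Atf4 itself, 5 were higher and 0 lower. The higher ones were led by Psat1, an enzyme of serine synthesis, at 0.53 ± 0.05, Aldh18a1 at 0.23 ± 0.05 and Shmt2 at 0.32 ± 0.06. The list's mean level was 8.85 and 8.98 in WT apigenin replicates 1 and 5 and 8.86 in Ts1Cje apigenin replicate 2. In the other apigenin embryos it was 8.58 to 8.66, within the plain-chow range of 8.56 to 8.67.

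Markers of cell types and of maturity moved with chow as well. All 11 measured markers of dividing cells were higher on apigenin in WT and in Ts1Cje, by a median of 0.35 and 0.40. Their mean level was 8.95 to 9.22 in the embryos on plain chow and 9.38 to 9.57 in those on apigenin, with no overlap. Of 12 radial glia markers 7 were higher in each genotype and 0 lower, and of 8 markers of intermediate progenitors 6 were higher in WT and 8 in Ts1Cje. Nestin (Nes), a filament of neural stem cells, was higher by 0.63 ± 0.07 over both genotypes.

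Of 11 neuron markers 3 were lower in each genotype, Rbfox3, Stmn2 and Syt1, and in Ts1Cje 2 were higher, Bcl11b and Tbr1. Their mean level was 11.5 to 11.6 in every group. Of 10 erythroid markers 2 were higher in each genotype, the embryonic globins Hbb-y, by 2.78 ± 0.17 over both genotypes, and Hba-x, by 0.75 ± 0.07. The mean erythroid level was 6.91 to 7.16 on plain chow and 7.30 to 7.58 on apigenin. That mean mainly follows the 2 globins: over both genotypes the list's median difference was 0.07, and 1 marker was lower. Of 12 endothelium and pericyte markers 0 passed in WT, and 2 were lower in Ts1Cje, Flt1 and Kcnj8. These marker values moved with chow as the members did, and their part in the members' differences was not tested. By genotype on plain chow 0 markers of dividing cells, radial glia, intermediate progenitors, neurons, endothelium or erythroid cells passed. At an unadjusted p under 0.05, however, 5 of 12 endothelium and pericyte markers (41.7%) differed, against 6.69% of all genes. Of these 12 markers 11 had a positive difference on plain chow, as had all 10 markers of meninges and fibroblasts and 9006 of all 20239 genes. On apigenin chow 6 of the 12 and 7 of the 10 were positive, as were 9559 of all 20239 genes. Of 8 choroid plexus markers 1 passed on plain chow, higher in Ts1Cje (12.5%, against 0.262% of all genes called higher). On that chow 5 of the 8 had a negative difference, and the list's median was -0.03. The choroid plexus list includes Clic6 and Kcne2, which lie in the trisomic segment.

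**Figure D5:**
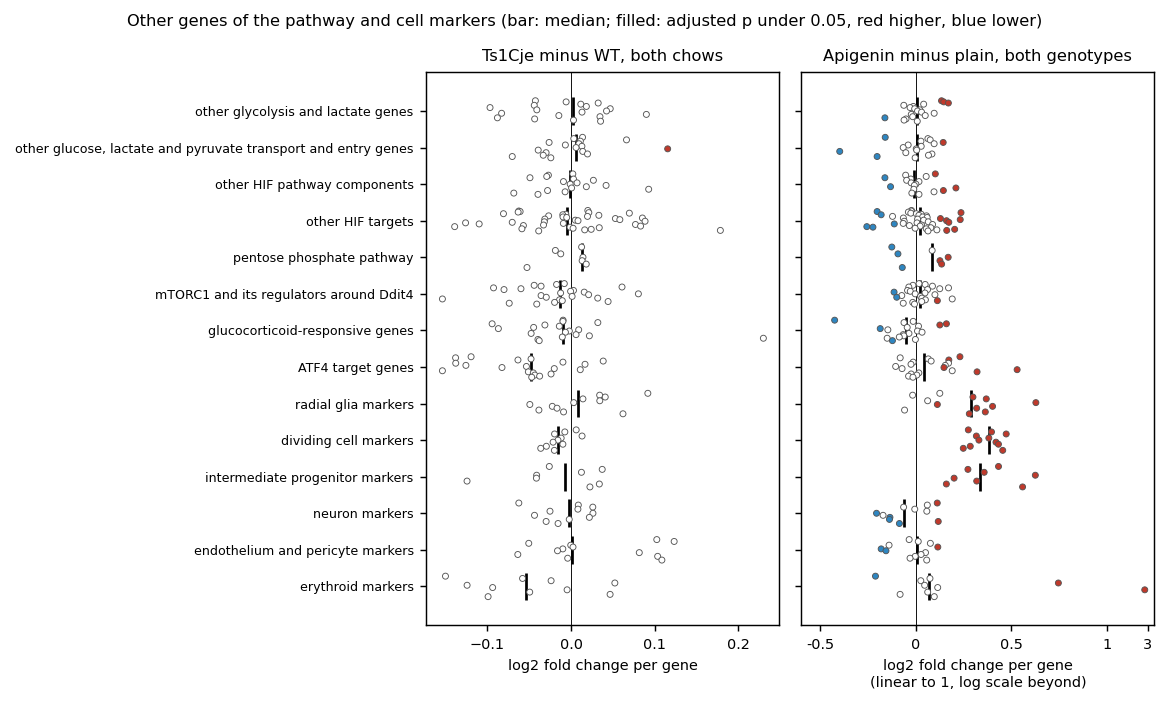
Log2 fold change of each measured gene (dot) of 8 related lists and 6 marker lists, for genotype averaged over chows (left) and apigenin averaged over genotypes (right, linear up to 1 and on a log scale beyond); black bars are list medians, filled dots have an adjusted p under 0.05. By genotype 1 dot is filled, and on apigenin the progenitor and dividing-cell lists lie to the right while the glycolysis and HIF lists lie around 0.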

How the data were processed

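The authors deposited 1 log2 value for each probe set and array, computed by RMA according to the labels (per the submitters' processing notes). That method evens out the arrays' distributions and compresses dim values, so changes of dim genes are understated. Its version and the chip definition were not given in the sources used here. Of 21225 probe sets 20239 had 1 gene symbol through the platform's gene table, 0 had several, and 986 were not listed and stayed unnamed. The table has 0 columns of samples from outside the series. The genotype and treatment labels define the groups, because the titles of all embryos carry the strain name.

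One mean per group was fitted over all 20 arrays with limma 3.58.1 in R 4.3.3 (lmFit, eBayes). Two-sided p-values were adjusted by Benjamini and Hochberg's method across the 20239 genes and called under 0.05. The fit was tested on simulated data. Members called in any comparison are given in every embryo, and where fewer than 3 were called, the 3 members with the smallest p are named. Up to 4 genes of each other list are named by p. The members, the lists and these rules were chosen with earlier results of these data known. Alternatives were the study's threshold and t-test, filters, normalization, array weights, embryo number runs and leaving out each embryo. Promoters came from RefSeq on GRCm38.p6.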

Additional observations from a re-analysis of the deposited data

Results flagged for a closer look

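In WT embryos on plain chow, Pgk1 in replicate 4 stood apart from the others: it lay at 8.24, and the other 4 embryos at 7.85 to 7.95. The gap was 0.746 of the group's range, above the limit of 0.71 for 5 embryos. This was 1 of 120 groups of embryos looked at, and chance alone gives about 1 in 20. Pgk1 was not called in any comparison.

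Car9 differed by genotype in opposite directions on the 2 chows. The difference between Ts1Cje and WT was -0.09 on plain chow and 0.08 on apigenin chow, a change of 0.174 on the log2 scale that did not pass (limma, interaction adjusted p = 1). Car9 was among the dimmest 20% of genes.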

How the results depend on the processing

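For genotype on plain chow the 1 member called, Ddit4, became 0 with the methods' t-test after adjustment or at its unadjusted threshold, with only the groups compared and with the embryo number runs in the model, and leaving out 1 embryo gave 0 to 1. On apigenin chow the count was 0 in all settings, and for the interaction too. For apigenin in WT the 7 members became 4 at the study's threshold and 1 with the methods' t-test at its unadjusted threshold, and leaving out 1 embryo gave 5 to 8. For apigenin in Ts1Cje the 12 became 6 under each of those 2 settings, and leaving out 1 embryo gave 8 to 13. Averaged over genotypes the 14 ranged from 13 to 16 without 1 embryo. At the study's threshold Ldhb, Pfkp and Tpi1, all among the members and enzymes called lower, lost their averaged calls. Averaged over chows the count stayed at 1, Ddit4. Of 1333 alternative values of 45 gene results, 1226 kept their direction and side of the threshold, 107 lost the call, and 0 reversed. The causes were not tested. The random block of embryo number runs had a consensus correlation of -0.05. No paired analysis was possible because the groups share no embryo numbers. The number of arrays limits all values, and Car9, among the dimmest 20%, is limited by its low signal.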
